A study of Mus musculus with 4 samples.

Results

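The genes described here are 8 genes of small leucine-rich proteoglycans (Bgn, Dcn, Aspn, Lum, Fmod, Prelp, Ogn and Chad) and the genes of 2 larger secreted proteoglycans, Prg4 and Vcan. They were taken by gene symbol, 10 rows of the 29595 in the deposited table. RNA was sequenced from the right ventricles of 4 adult mice of mixed C57BL/6 background, 2 of them Ezh2-deficient (mutant 1 and mutant 3, numbered as in the labels) and 2 wild type (wild type 1 and wild type 2). Where 4 values follow each other, they stand in this library order. Ezh2 encodes the methyltransferase of Polycomb repressive complex 2, which silences genes through methylation of histone H3. The labels name no treatment and do not say which part of Ezh2 was removed or in which cells, and the comparison asks how gene expression in the ventricle differs without Ezh2. The polyadenylated RNA was normalised with duplex-specific nuclease, an enzyme that digests part of the abundant molecules before sequencing.

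Small leucine-rich proteoglycans are secreted proteins whose curved core of leucine-rich repeats binds collagen fibrils and regulates their diameter and spacing. They are sorted into classes by sequence: biglycan (Bgn), decorin (Dcn) and asporin (Aspn) form class I, lumican (Lum), fibromodulin (Fmod) and PRELP (Prelp) class II, osteoglycin (Ogn) class III and chondroadherin (Chad) class IV. In the heart they are made mainly by fibroblasts. Prg4 encodes lubricin, the boundary lubricant of joints and tendons, and Vcan encodes versican, a large chondroitin sulfate proteoglycan that binds hyaluronan and is prominent in heart valves and the developing heart.

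The table held 18177642 to 23853394 reads per library, of which mitochondrial genes took 34.7% to 47.3% (the lowest and the highest library, 95% Clopper-Pearson intervals 34.7 to 34.7 and 47.3 to 47.4, counting error only). The Ezh2 row had 73, 70, 77 and 67 reads, so it did not separate the groups and does not check the labels. The Y-linked Ddx3y had 754, 659, 2 and 2 reads, so sex follows genotype and the effects of both cannot be told apart in any difference given here. Of the fibroblast markers, all 6 (Pdgfra, Tcf21, Ddr2, Dpt, Col1a1 and Col1a2) were read in every library, with summed levels of 319, 402, 497 and 370 CPM (reads per 1000000 reads of the library, scaled by edgeR's TMM factors). Most of each sum came from Col1a1 (90.9, 124, 177 and 115 CPM) and Col1a2 (119, 169, 195 and 144 CPM). Pdgfra was at 31.5, 27.6, 30.8 and 28.9 CPM and Dpt at 57.4, 63.2, 75.7 and 62.7 CPM. Mutant 1 stood apart in fast skeletal muscle genes, whose 4 markers summed to 179, 3.25, 2.98 and 2.97 CPM. Wild type 1 stood apart in its low reads of transcripts rich in A and T, described with the base composition. Some fits with a library left out are given for the proteoglycan genes, but not for the markers or the lists of other genes. These are whole-tissue libraries, so a change in the number of cells of a type and a change of RNA per cell cannot be told apart.

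No proteoglycan gene passed an adjusted p of 0.05 over all 16128 tested rows in edgeR's quasi-likelihood test, and Prg4, about 3-fold higher in both mutants, came nearest at 0.0638. All 10 genes were tested, and 0 of 10 passed against 0.130% of all tested rows (21 rows; 0.105% higher and 0.0248% lower in the mutants). At an unadjusted p under 0.05 there were 3 of 10 (Prg4, Chad and Dcn, all higher in the mutants), against 10.9% of all rows in either direction, 6.49% higher and 4.38% lower. Both mutants lay above both wild types in 4 of 10 (Bgn, Dcn, Chad and Prg4), against 22.3% of all rows, and both lay below in 0 of 10, against 22.4% (44.8% in either direction). The log2 fold change was above 0 in 9 genes, against 50.5% of all rows, and the median was 0.31 beside 0.00 over all tested rows. The wild types were further apart than the mutants in 9 of 10 genes, as in 71.4% of all tested rows. The plot of levels by library shows how far apart the wild types lay for Aspn, Ogn and Bgn.

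**Figure D1:**
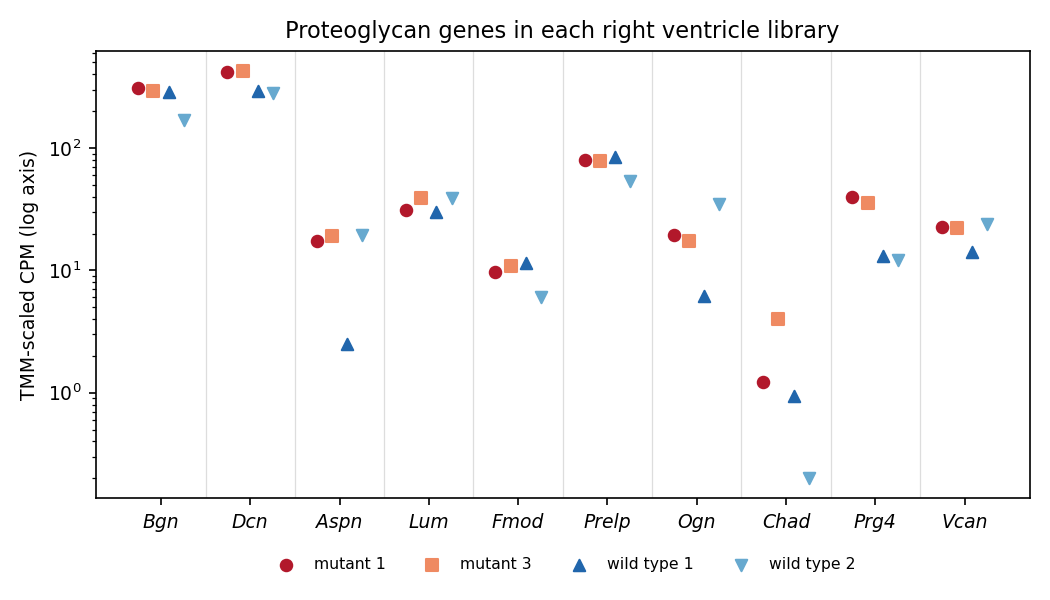
TMM-scaled CPM (log axis) of each proteoglycan gene in the 4 libraries, 1 point per library, genes ordered by class. Prg4 and Dcn separate the groups with little spread, whereas Aspn and Ogn are low in wild type 1 alone and Bgn, Fmod and Prelp are lowest in wild type 2.

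Prg4 (chromosome 1, 152297001 to 152313295, minus strand, mm9) had 854, 706, 293 and 240 reads, or 39.9, 35.8, 13.05 and 12.1 CPM. Both mutants were well above both wild types, and the libraries within each group were close. The mean was 37.8 ± 2.86 CPM (SD, n = 2) in mutant hearts against 12.6 ± 0.687 in wild-type hearts, 3.01-fold higher. The log2 fold change was 1.59 ± 0.22 (SE), ranked 23 by p of the 16128 rows (adjusted p = 0.0638; 0.428% of all rows were under 0.1). It passed in 7 of 14 alternatives, and adjusted p was 1.80e-05 by DESeq2 and 0.0584 by limma-voom. In those 7 fits the share of all rows passing was 1.09% with DESeq2, 0.967% with library totals only, 1.44% with no low-count filter, 0.653% without mutant 3, 0.565% with a correction for GC content and length, and 12.2% and 22.0% without wild type 1 and wild type 2. Without mutant 1 the change was 1.55 (adjusted p = 0.0616). It lay between 1.31 and 1.70 in every one of the 14, and the adjusted p between 1.80e-05 and 0.0814. Prg4 shares only 59 bases with the neighbouring Tpr, which had 1805, 1743, 652 and 1781 reads and so did not follow Prg4. The authors' CPM is reads over the library's total, without TMM scaling. On that scale their deposited ratio of a mutant to a wild-type library for Prg4 was 2.03 to 2.98 in the 4 pairings. Their ratio for wild type 1 over wild type 2 was 1.10, and for mutant 1 over mutant 3 it was 1.33.

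Chad (chromosome 11, 94426388 to 94430441, plus strand), whose product anchors cartilage cells to collagen, was near the lower limit of detection. It had 26, 79, 21 and 4 reads, or 1.21, 4.01, 0.935 and 0.201 CPM. Mutant 3 stood above the other libraries, and mutant 1 was only slightly above wild type 1. The log2 fold change of 2.16 ± 0.78 had an adjusted p of 0.377. Without mutant 3 the change was 1.13 (adjusted p = 1.00), and without wild type 1 it was 3.65 (adjusted p = 0.00816). Chad lies inside a longer row on the opposite strand, BC018371, with 264, 284, 388 and 233 reads, and no source used here says whether strand was used in counting.

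Prg4 and Chad are known from tendon, cartilage and joint tissue, and 7 markers of such tissue and of heart valves were read beside them. Over the 7 listed markers the summed level was 36.4, 27.4, 19.2 and 11.5 CPM, but without Comp it was 11.4, 11.8, 11.8 and 7.70 CPM, so that wild type 1 was level with the mutants. Both mutants lay above both wild types in 4 of 7 (Scx, Tnmd, Comp and Acan). Tnmd and Acan had too few reads for the test, Acan only 1, 14, 1 and 0. Among the tested markers this held for Scx and Comp but not for Sox9, against 22.3% of all tested rows. Sox9, a cartilage and valve transcription factor, overlapped and had its highest level in wild type 1 (4.76, 5.93, 7.26 and 5.23 CPM), and Cilp2 overlapped as well. Comp, cartilage oligomeric matrix protein, had 534, 308, 167 and 76 reads, while the defining cartilage gene Col2a1 had 0, 2, 0 and 0 reads and the tendon gene Tnmd 9, 10, 4 and 0. Atrial markers (Myl7, Sln and Myl4) summed to 140, 113, 55.3 and 5.48 CPM, all 3 with both mutants above both wild types (22.3% of all tested rows). The mesothelium and epicardium markers summed to 8.45, 7.71, 9.71 and 12.4 CPM. Both mutants lay below both wild types in 4 of these 6 and above in 1, against 22.4% and 22.3% of all tested rows. Of the markers in these 3 lists, in the order given, 3 of 7, 3 of 3 and 6 of 6 had enough reads for the test and 0 passed. Their part in the Prg4 and Chad values was not tested.

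Dcn (chromosome 10, 96942243 to 96980785, plus strand), the most abundant gene of the set, encodes decorin, which coats collagen fibrils and binds transforming growth factor beta. It had 8909, 8384, 6536 and 5544 reads in library order, or 416, 425, 291 and 279 CPM. The groups did not overlap and the libraries within each were nearly equal, with means of 420 ± 6.65 and 285 ± 8.57 CPM (SD, n = 2), 47.5% higher in the mutants. The log2 fold change of 0.56 ± 0.22 had an unadjusted p of 0.0319 and an adjusted p of 0.409. It was 0.27 with scaling by library totals alone, where the median of all rows was -0.28, and 0.16 ± 0.19 (adjusted p = 0.722) when transcript GC content and length were corrected for. For Dcn that correction fitted a log2 ratio of wild type 1 to wild type 2 of -0.42, where 0.03 was observed.

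Bgn (chromosome X, 70728983 to 70741270, plus strand) encodes biglycan, the closest relative of decorin, which also acts as a danger signal through Toll-like receptors when released from matrix. Its level was 307, 291, 289 and 169 CPM. The separation of the groups rested on wild type 2 alone, since wild type 1 was nearly level with mutant 3. The log2 fold change was 0.38 ± 0.29 (adjusted p = 0.664), 0.82 without wild type 1 (adjusted p = 0.00511) and 0.04 without wild type 2 (adjusted p = 0.867). Bgn is X-linked, and sex differed between the groups.

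Aspn (chromosome 13, 49639910 to 49662931, plus strand) encodes asporin, a class I protein with a run of aspartate residues that binds collagen and calcium. It had 373, 374, 56 and 387 reads in library order, or 17.4, 19.0, 2.49 and 19.5 CPM. Wild type 2 was level with the mutants and wild type 1 was far below all the others, 7.81-fold lower than wild type 2. The fold change over both wild types (0.73 ± 0.71 in log2, adjusted p = 0.741) therefore rested on a single library. It was -0.10 without wild type 1 and 2.86 without wild type 2 (adjusted p = 6.23e-06).

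Among the class II genes, Lum encodes lumican, a keratan sulfate proteoglycan that organises fibrils in cornea, skin and heart. Lum (chromosome 10, 97028464 to 97035328, plus strand) was at 31.0, 38.7, 30.1 and 38.8 CPM. Each group had a low and a high library, and the log2 fold change was 0.02 ± 0.24 (adjusted p = 0.989). Fmod, whose product fibromodulin guides collagen cross-linking, was at 9.66, 11.0, 11.4 and 6.09 CPM (0.23 ± 0.33, adjusted p = 0.835). Prelp, whose product links basement membranes to collagen, was at 79.3, 78.1, 83.6 and 53.5 CPM (0.20 ± 0.26, adjusted p = 0.815). In both Fmod and Prelp wild type 1 was the highest and wild type 2 the lowest of the 4 libraries. Their changes were 0.76 and 0.56 without wild type 1 (adjusted p = 0.0425 and 0.0285) and -0.15 and -0.09 without wild type 2 (0.639 and 0.688).

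Ogn, the class III gene (chromosome 13, 49703440 to 49719869, plus strand), encodes osteoglycin, also called mimecan, a regulator of collagen fibril growth. It had 419, 341, 138 and 695 reads, or 19.6, 17.3, 6.14 and 35.0 CPM. Both mutants lay between the wild types, which were 5.69-fold apart. The log2 fold change was -0.15 ± 0.63 (adjusted p = 0.948), and it turned from -0.92 without wild type 1 (adjusted p = 0.00194) to 1.58 without wild type 2 (adjusted p = 2.15e-04).

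Vcan (chromosome 13, 89794915 to 89882117, minus strand) had 488, 435, 317 and 474 reads in library order, or 22.8, 22.1, 14.1 and 23.8 CPM. Wild type 1 was the lowest library and wild type 2 the highest, and the log2 fold change was 0.24 ± 0.28 (adjusted p = 0.794). The same span appears a second time in the table under the older symbol Cspg2, with 286, 264, 155 and 229 reads. Both rows had their lowest level in wild type 1, but the groups overlapped for Vcan and did not for Cspg2, at 13.3, 13.4, 6.90 and 11.5 CPM (0.54 ± 0.29, adjusted p = 0.553). The sources used here do not say how reads were divided between the 2 rows, so neither gives the level of a particular versican isoform.

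Without wild type 1, 7 of 10 genes passed (6 higher, 1 lower), against 12.2% of all tested rows (7.87% higher, 4.33% lower), and without wild type 2 it was 5 of 10, all higher, against 22.0% (13.2% higher). In both fits a single heart stood for the wild types and was assumed to vary like the mutants. Prg4 and Dcn passed in both fits with the same direction. Ogn passed in both with opposite directions. Bgn, Fmod, Prelp and Chad passed only without wild type 1, and Aspn and Vcan only without wild type 2. The plot of fold changes shows these 2 fits beside the others.

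**Figure D2:**
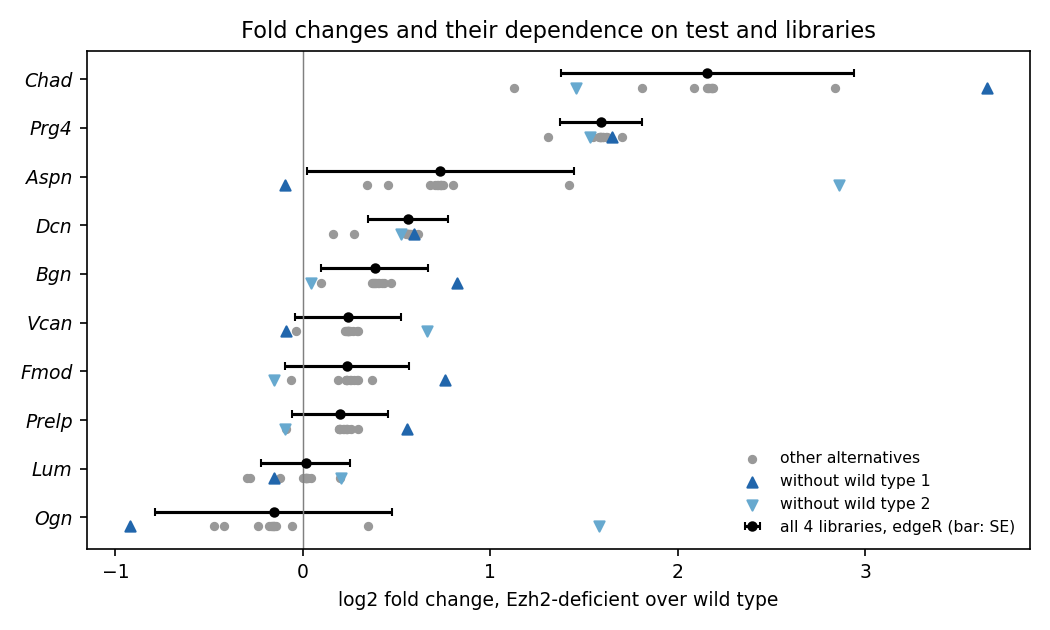
Log2 fold change of Ezh2-deficient over wild type for each gene (black points, bars are SE from edgeR with all 4 libraries) and under each alternative (grey points), with triangles for the fits without wild type 1 or wild type 2. Chad and Prg4 stay above 1 in all fits, while Ogn moves from -0.92 to 1.58 with the wild-type library that is left out.

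The gap between the wild types was ordered by the base composition of the transcripts. The coding sequences of Aspn and Ogn are richer in A and T than those of Bgn, Fmod and Prelp. Their first 150 coding bases are shown with every G and C in capitals (transcripts of GENCODE vM21, GRCm38). In the order shown, G and C make up 43.3%, 44.0%, 55.3%, 57.3% and 59.3% of these stretches. The same stretch, not shown, had 40.7% in Vcan, lower than in Aspn and Ogn, and 46.7% in Dcn and Prg4. Aspn and Ogn had the lowest ratio of wild type 1 to wild type 2 of all 10 genes, and the other genes shown had their lowest level in wild type 2.
Aspn: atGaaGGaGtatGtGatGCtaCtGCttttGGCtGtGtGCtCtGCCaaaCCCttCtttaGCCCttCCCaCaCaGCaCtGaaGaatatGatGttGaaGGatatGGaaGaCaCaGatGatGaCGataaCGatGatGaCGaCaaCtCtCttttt
Ogn: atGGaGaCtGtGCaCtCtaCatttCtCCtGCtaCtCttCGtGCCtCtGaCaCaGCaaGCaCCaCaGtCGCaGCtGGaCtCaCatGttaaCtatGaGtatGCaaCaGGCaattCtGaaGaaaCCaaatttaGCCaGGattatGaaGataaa
Bgn: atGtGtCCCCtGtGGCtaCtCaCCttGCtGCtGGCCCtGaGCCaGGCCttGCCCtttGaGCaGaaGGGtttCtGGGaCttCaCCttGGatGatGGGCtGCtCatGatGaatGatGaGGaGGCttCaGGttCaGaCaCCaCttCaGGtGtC
Fmod: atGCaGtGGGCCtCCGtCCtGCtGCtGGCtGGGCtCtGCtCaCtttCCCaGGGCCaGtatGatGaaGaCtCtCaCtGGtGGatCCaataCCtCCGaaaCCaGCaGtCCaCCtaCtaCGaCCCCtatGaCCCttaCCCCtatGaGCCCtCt
Prelp: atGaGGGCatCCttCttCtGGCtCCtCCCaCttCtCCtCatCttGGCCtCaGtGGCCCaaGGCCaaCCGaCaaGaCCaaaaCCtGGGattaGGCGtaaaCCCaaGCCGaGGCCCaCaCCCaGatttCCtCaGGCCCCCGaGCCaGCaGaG

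G and C make up 38.4% of the whole coding sequence of Aspn and 38.5% of that of Ogn, against 53.3%, 56.4% and 56.5% for Bgn, Fmod and Prelp. Over the whole transcript, Aspn had 34.3% and Ogn 36.3%, lower than all but 0.0763% and 0.420% of the 13098 tested rows with a matched transcript. Their log2 ratio of wild type 1 to wild type 2 (fitted with a small prior count) was -2.95 and -2.52. At intermediate GC content (41.9% to 43.7%), Lum, Dcn and Vcan had ratios of -0.40, 0.03 and -0.78. At 52.5% to 53.8%, Bgn, Fmod and Prelp had ratios of 0.74, 0.86 and 0.61, and Chad, at 56.7%, had 1.77. Prg4, at 47.8%, was nearly equal in the wild types (0.08). Across the 10 genes, which share the same libraries, Spearman's rho between GC content and this ratio was 0.93 and Pearson's r 0.95. For mutant 1 over mutant 3, the same 10 genes gave a rho of -0.24 and an r of -0.44.

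All tested rows showed a slope of the same direction. Over the 13098 rows with a matched transcript, Spearman's rho for wild type 1 over wild type 2 was 0.55, lower than over the 10 genes. For mutant 1 over mutant 3 it was -0.02. The median log2 ratio of wild type 1 to wild type 2 was -1.06 in the 170 rows under 38% GC, 0.03 in the 2783 rows of 46% to 50%, and 0.37 in the 1451 rows above 58%. The median for mutant 1 over mutant 3 stayed between -0.03 and 0.01 in every GC bin. Set against the mean of the mutants, wild type 1 was at -0.93 in the lowest bin and 0.21 in the highest, and wild type 2 at 0.12 and -0.11. The gaps of Aspn and Ogn exceeded what a smooth fit on GC content and transcript length gave for their composition (-1.50 and -1.27), leaving -1.45 and -1.25. For Fmod, Bgn and Prelp 0.66, 0.56 and 0.41 were left, and for Chad 1.43. Dcn had a gap of 0.03 but a fitted part of -0.42, which left 0.45. For Lum, Vcan and Prg4, 0.18, -0.05 and 0.20 were left. With this fit as a correction, chosen after seeing the data, Prg4 passed at a log2 fold change of 1.62 ± 0.18 (adjusted p = 0.00940; 0.0592 on the same rows without it), as 1 of 10 genes called.

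**Figure D3:**
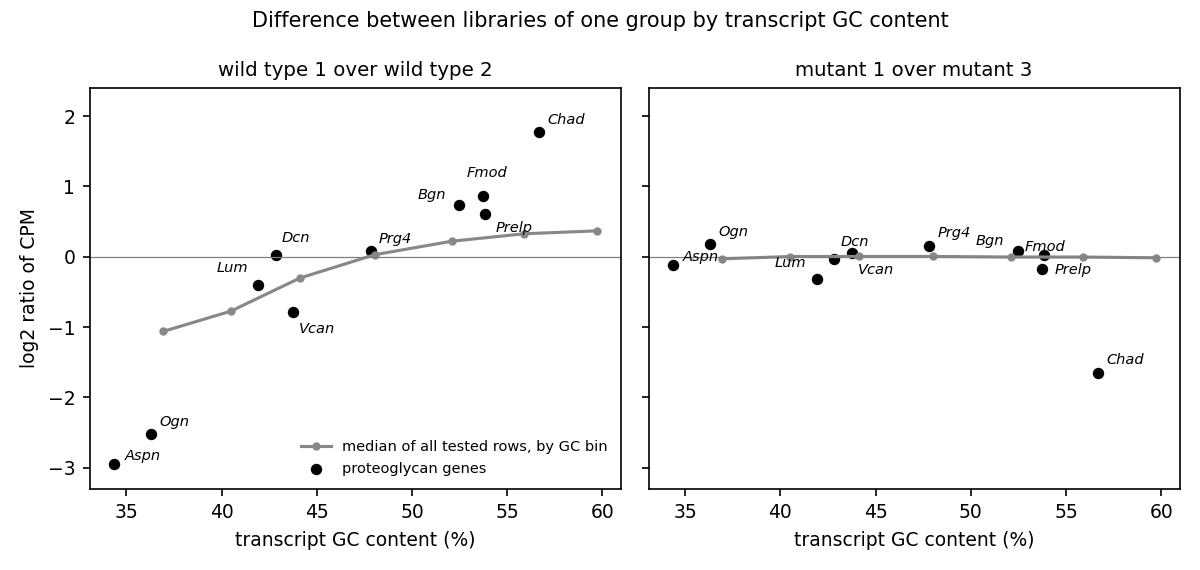
Log2 ratio of CPM between the 2 libraries of a group (left: wild type 1 over wild type 2; right: mutant 1 over mutant 3) against the GC content of each gene's transcript, with the median of all tested rows in 7 GC bins as a grey line. Proteoglycan genes rise from -2.95 for Aspn to 1.77 for Chad on the left, and on the right all but Chad lie between -0.32 and 0.18.

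Of these genes, 6 lie in 3 chromosomal groups of related genes, and neighbours had the same lowest library in 2 of the 3. How often neighbouring rows of the whole table share their lowest library was not counted. The pairs that shared it also had similar transcript GC content, 34.3% and 36.3% for Aspn and Ogn and 53.7% and 53.8% for Fmod and Prelp. Dcn and Lum, at 42.8% and 41.9%, did not share it. Whether position or base composition had a part was not tested. On chromosome 13 the order is Ecm2, Aspn, Omd and Ogn, all on the plus strand and all inside or beside the oppositely oriented Cenpp, which had only 41, 37, 41 and 33 reads. Aspn and Ogn were both lowest in wild type 1. Ecm2, a related extracellular matrix gene, was at 325, 328, 263 and 268 reads in library order, with little difference between the wild types. Omd, osteomodulin of bone, had 20, 9, 4 and 0 reads, too few for the test. On chromosome 1, Optc (0, 1, 1 and 0 reads), Prelp (135806855 to 135817954, minus strand) and Fmod (135934092 to 135944854, plus strand) lie together, and Prelp and Fmod shared the order of the 4 libraries at both ends. On chromosome 10, Dcn and Lum are followed by the cornea gene Kera (0, 0, 2 and 1 reads) and Epyc (7, 9, 5 and 4 reads), both with too few reads for the test. Both mutants lay above both wild types for Dcn and, on these few reads, for Epyc, but not for Lum, which lies next to Dcn.

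**Figure D4:**
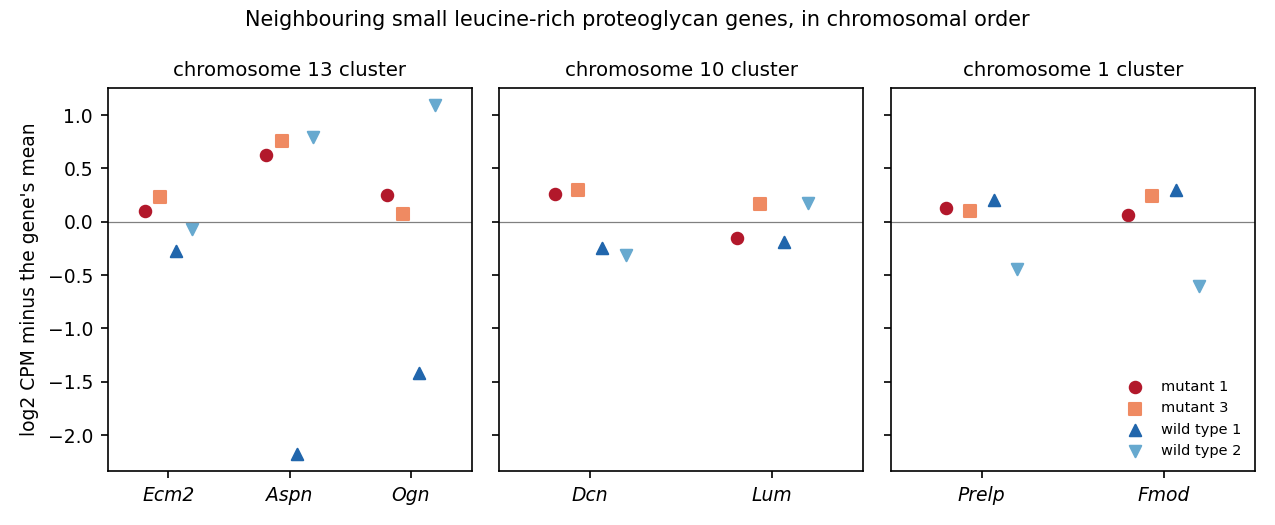
Log2 CPM of each gene minus its mean over the 4 libraries, for neighbouring genes in chromosomal order, 1 point per library. Wild type 1 lies lowest for Aspn and Ogn on chromosome 13, wild type 2 lies lowest for Prelp and Fmod on chromosome 1, and both wild types lie below both mutants for Dcn but not for Lum on chromosome 10.

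Promoters from the RefSeq table (GRCm38.p6, 250 bases before to 50 after the start) were matched for 7 of the 10 genes; Dcn, Lum and Prg4 were not matched. They are shown for Aspn and Ogn, the neighbours that were both lowest in wild type 1, with CpG dinucleotides in capitals (chr13:49544193-49544492 and chr13:49607765-49608064, plus strand). Aspn had 3 CpG and Ogn 4, against a median of 7 over 32851 promoters of this length.
Aspn promoter: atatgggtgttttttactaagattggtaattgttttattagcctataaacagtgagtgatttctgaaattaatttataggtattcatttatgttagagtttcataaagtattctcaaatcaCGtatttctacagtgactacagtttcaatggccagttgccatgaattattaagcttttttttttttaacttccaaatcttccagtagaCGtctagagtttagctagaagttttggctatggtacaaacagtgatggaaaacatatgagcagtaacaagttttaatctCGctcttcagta
Ogn promoter: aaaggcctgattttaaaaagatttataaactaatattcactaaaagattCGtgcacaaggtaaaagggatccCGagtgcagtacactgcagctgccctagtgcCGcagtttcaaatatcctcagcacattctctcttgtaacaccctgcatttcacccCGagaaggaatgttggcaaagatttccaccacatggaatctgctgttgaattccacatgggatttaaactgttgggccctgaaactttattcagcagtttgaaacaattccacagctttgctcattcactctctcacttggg

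Bgn had 9 CpG, Fmod 3, Prelp 7, Vcan 12 and Chad 13 in the same window. The letters TATAAA, searched on both strands, occurred in the windows of Aspn, Ogn and Chad and in 13.6% of all promoters. The letters GGAATG (both strands) occurred only in that of Ogn among the 7, and in 14.7% of all promoters. The letters CAGACA occurred only in Prelp among the 7, and in 21.0% of all, and TGANTCA, the palindromic AP-1 motif, in none of the 7 and in 7.81% of all. These searches describe the letters of these windows and do not show that a factor binds there.

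The ratio of one proteoglycan gene to another within a library does not depend on how libraries are scaled. Such a ratio still carries a library difference that follows GC content where the genes differ in that content. The smooth fit gave a log2 ratio of wild type 1 to wild type 2 of 0.18 for Bgn and -0.42 for Dcn. Bgn reads per Dcn read were 0.739 and 0.684 in mutant 1 and mutant 3 and 0.992 and 0.608 in wild type 1 and wild type 2, so the mutants lay between the wild types. The mutants also lay between the wild types for Aspn to Dcn, Fmod to Lum, Prelp to Lum and Vcan to Dcn. Only Aspn to Ogn separated the groups among the 6 fixed pairs, at 0.890, 1.10, 0.406 and 0.557. That difference was 1.06 in log2, with SDs of 0.213 and 0.323 (n = 2 each). With 2 libraries against 2, the exact two-sided permutation test cannot give a p under 0.333, which is the value here; for the other 5 pairs it was 1.

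Per kilobase of transcript, Dcn was read most densely in the wild types, at 162 ± 4.87 CPM per kb (SD, n = 2), followed by Bgn at 94.7 ± 34.9, and the ranges of these 2 genes did not overlap. Prelp (19.0 ± 5.89 CPM per kb), Lum (14.1 ± 2.52), Ogn (8.01 ± 7.94) and Aspn (4.72 ± 5.15) came next, and each overlapped its neighbour in this order. Prg4 was at 2.95 ± 0.161, Fmod at 2.80 ± 1.204, Vcan at 1.53 ± 0.554 and Chad at 0.338 ± 0.309 CPM per kb, with Aspn, Prg4 and Fmod overlapping their neighbours and Vcan and Chad below the gene before them in both wild types. The Vcan density leaves out the Cspg2 row on the same span (6.90 and 11.5 CPM in wild type 1 and wild type 2). The place of versican in this order is therefore uncertain. In the mutants Prg4 stood at 9.35 and 8.40 CPM per kb, above Ogn (7.62 and 6.74) in both libraries. The nuclease treatment lowers abundant transcripts most, so these densities do not give RNA proportions.

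Genes that act with these proteins were read from 8 lists, and 0 genes of any list passed over all tested rows. Of the 10 collagens that these proteins bind, 9 had a log2 fold change below 0, with a median of -0.50 beside 0.00 over all rows. At an unadjusted p under 0.05, 4 were lower and 1 was higher in the mutants, against 4.38% and 6.49% of all tested rows. Both mutants lay below both wild types in 5 of the 10 and above in 1, against 22.4% and 22.3% of all tested rows. The 9 below 0 all had their highest level in wild type 1, and their transcripts had 49.6% to 58.9% G and C. In the GC bins above 46%, the median log2 ratio of wild type 1 to the mutants was 0.04 to 0.21. The part of this library difference in the collagen values was not tested. Col6a3, a chain of the microfibrillar collagen that binds decorin and biglycan, was at 28.0 ± 7.69 against 58.8 ± 7.63 CPM (SD, n = 2, mutants first here and in what follows; adjusted p = 0.220). Col12a1, a fibril-associated collagen that binds decorin and fibromodulin, went the other way, with 84, 74, 24 and 21 reads (1.85 ± 0.35, adjusted p = 0.138).

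Other proteoglycans and partners showed no called change. Of 3 other tested small leucine-rich genes, Tsku had 82, 43, 33 and 24 reads (adjusted p = 0.375) and Podn 177, 177, 270 and 223 (adjusted p = 0.555). Of 15 tested core proteins of other proteoglycans, 4 were above 0 (median -0.17). The smallest p belonged to the cell-surface syndecan Sdc4 with 941, 733, 541 and 417 reads (0.85 ± 0.22, adjusted p = 0.247), followed by Esm1 with 92, 33, 25 and 34 (1.09 ± 0.52, adjusted p = 0.505), in which the groups overlapped. Of 19 tested enzymes of chondroitin and dermatan sulfate synthesis, which build the chains on Dcn, Bgn and Vcan, 7 were above 0 (median -0.06). Their smallest p belonged to the kinase gene Fam20b (row C530043G21Rik, 652, 677, 1103 and 827 reads, adjusted p = 0.469) and the sulfotransferase gene Chst15 (row 4631426J05Rik, 208, 164, 266 and 204 reads, adjusted p = 0.697). Of 5 tested keratan sulfate enzymes 2 were above 0 (median -0.22), with B4galt1 at 59.8 ± 5.27 against 91.8 ± 10.9 CPM (adjusted p = 0.362) and Chst1 at 3.60 ± 0.143 against 5.76 ± 0.673 (adjusted p = 0.446).

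Among 15 tested genes of proteinases that process these core proteins and of their helpers, 5 were above 0 (median -0.29), 2 of them the procollagen C-proteinase enhancers Pcolce and Pcolce2 (0.09 and 0.39). Adamts20, a versican-cleaving metalloproteinase, had 24, 27, 2 and 3 reads (adjusted p = 0.169), and the lysosomal cathepsin gene Ctss had 435, 243, 162 and 151 (adjusted p = 0.244). The 10 tested hyaluronan and versican partners had a median of -0.19, with 3 above 0, and Lyve1 and Fbln2, of smallest p, were at 9.80 ± 1.45 against 6.98 ± 0.267 CPM and 64.1 ± 4.79 against 48.1 ± 8.61 (adjusted p = 0.540 and 0.550). Of 16 tested growth factors and receptors, 11 were above 0 (median 0.34). Tgfb2, a ligand that decorin and biglycan can sequester, had 448, 362, 239 and 217 reads (0.86 ± 0.22, adjusted p = 0.235), and the matrix signalling gene Ctgf had 3408, 1911, 1613 and 889 (1.13 ± 0.32, adjusted p = 0.282).

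The rows most like Prg4 in their profile over the 4 libraries, by Euclidean distance of mean-centred log2 CPM among 8448 rows, were Sncg (distance 0.179), Abra (0.195) and Nupr1 (0.195). Sncg had 192, 186, 67 and 58 reads. For Dcn they were Slc16a6 (0.0170), Med10 (0.0304) and Ehbp1l1 (0.0388). The likeness is a description of these 4 libraries only.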

How the data were processed

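Read counts per gene row and library were deposited by the authors without normalisation, per the file headers, and were the input here. The authors' CPM (reads over the library's total in the table) was checked against the counts. The authors' ratio (fold) between libraries was deposited for each pair, with a p-value from the authors; only ratios of Prg4 are quoted. TopHat 1.2.0, Cufflinks and mm9 are named in the submitters' processing notes; the sources used here do not give the counting rule, strand use or annotation. Table starts, counted from 0, are printed counted from 1.

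Counts were fitted with edgeR 4.0.16 (R 4.3.3): filterByExpr, TMM scaling, quasi-likelihood test, no covariate, two-sided, Benjamini-Hochberg adjustment over 16128 rows, and tested on simulated data. The SE came from the F statistic. Nothing names a litter or batch, and p-values measure the spread between these hearts. Alternatives used DESeq2 1.42.0, limma 3.58.1 (voom), other scalings and filters, omitted libraries and, added after seeing the data, a loess correction (span 0.3) for GC content and length from GENCODE vM21 transcripts (81.2% of tested rows matched). Genes, lists and tests were chosen with earlier results of these data known. Named are all 10 genes, their chromosomal neighbours, per list the called genes or else the 2 of smallest p, and the 3 rows nearest to Prg4 and Dcn; marker genes, overlapping rows and the members of marker lists named with values were chosen after seeing values. Of 192 listed genes 186 had a row, 11 found through a synonym.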

Additional observations from a re-analysis of the deposited data

How the results depend on the processing

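Over 14 alternatives, Bgn (13 fits), Dcn, Chad (13 fits) and Prg4 kept their direction. All tested rows called numbered 21, and 203 with DESeq2, 156 with library totals only (76 higher and 80 lower, against 17 and 4, with the median of all rows at -0.28), 317 with no low-count filter, 12 with at least 5 CPM in 2 libraries, 9 without X, Y and mitochondrial rows, 74 with the GC and length correction, 69 at an adjusted p under 0.1 and 63 to 3675 with a library left out. Proteoglycan genes called numbered 0 of 10, and 1 (Prg4) with DESeq2, library totals only, no low-count filter, the GC and length correction and an adjusted p under 0.1, and 0 to 7 with a library left out. Their median log2 fold change of 0.31 was 0.39 with limma-voom, 0.029 with library totals only, 0.24 without X, Y and mitochondrial rows, and 0.38 to 0.59 with a library left out. Library totals only turned the direction of Lum (-0.28), Fmod (-0.063), Prelp (-0.089) and Vcan (-0.039), limma-voom that of Ogn (0.35) and the GC and length correction that of Lum (-0.30); the cause was not tested. Leaving out a library moved Lum between -0.16 and 0.20, Fmod between -0.15 and 0.76, Prelp between -0.093 and 0.56, Ogn between -0.92 and 1.58, Aspn between -0.097 and 2.86 and Vcan between -0.087 and 0.66. Of the log2 ratios within a library, it moved Bgn to Dcn between -0.48 and 0.23, Aspn to Dcn between -0.69 and 2.33, Fmod to Lum between -0.35 and 0.92, Prelp to Lum between -0.29 and 0.72 and Vcan to Dcn between -0.68 and 0.14. No paired analysis was possible because the groups share only 1 replicate number. Chad, with 4 reads in wild type 2, was limited by depth and was not tested at 5 CPM, and Bgn was not tested without X-linked rows. With 2 hearts per group, small changes could not be told from the spread.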

Other observations

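Among the receptors through which matrix proteoglycans signal, Tlr4, the Toll-like receptor that binds soluble biglycan and decorin, had 194, 134, 36 and 84 reads in library order, 7.92 ± 1.60 against 2.91 ± 1.85 CPM (SD, n = 2), with a log2 fold change of 1.45 ± 0.45 and an adjusted p of 0.320 in edgeR. Tlr2 had 76, 83, 79 and 54 reads in library order, and the ATP receptor gene P2rx4 293, 236, 200 and 204. The transcript of Tlr4 is 39.4% G and C, and wild type 1 was its lowest library, as for Aspn and Ogn. These genes were picked after their values were seen.

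The listed versican-cleaving proteinase genes did not all go the same way. Adamts1 had 264, 232, 329 and 470 reads and Adamts5 414, 294, 484 and 519. Both mutants lay below both wild types in CPM for each, against 22.4% of all tested rows. Adamts20 went the other way from a few reads. In Adamts4, Adamts9 and Adamts15 the groups overlapped, with log2 fold changes of 0.16, -0.50 and -0.58. None passed the test. Neither did the matrix fibre genes Fbn1 (2038, 2190, 2999 and 2274 reads) and Col3a1 (2942, 3949, 7342 and 4933 reads), in which wild type 1 was highest.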
